A study of Mus musculus with 12 samples.

Results

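Mouse embryonic stem cells carrying a hairpin against Suv39h2 (labelled shSuv39h2) were compared with cells of the same strain carrying the control hairpin (labelled shNC), and every gene with at least 1 FPKM in at least 2 of these 4 libraries was described. FPKM scales the fragments of a gene to transcript length and library size, so it compares levels between genes per length. This rule kept 12545 of the 23354 genes shared by all 12 libraries of the series. Just inside it were Enkur and Pon3, with second highest values of 1.00017 and 1.00068 FPKM. Just outside were Gm9895 and Mblac1, with second highest values of 0.999989 and 0.999616 FPKM. Of the genes kept, 11692 reached 1 FPKM in all 4 libraries.

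The cells were J1, a male mouse line, held as stable lines on inactivated embryonic fibroblast feeders in serum with leukemia inhibitory factor. Each group had 2 libraries: shNC, shSuv39h2, and shSuv39h1, a line with a hairpin against the related gene, which serves below as the comparison line. Nothing in the labels tells whether replicates were separate cultures or clones, so a p-value covers only the variation among these libraries, which may be technical. All 3 groups share a stably carried hairpin. The other 6 libraries of the series, from lines that overexpress histone H3.1 (H3.1WT, H3.1K9M and H3.1K36M), entered the fit and are otherwise used here only as background.

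Suv39h2 and its paralog Suv39h1 encode enzymes that put methyl groups on lysine 9 of histone H3, mainly in the repeat-rich heterochromatin around centromeres. This mark is bound by HP1 proteins and is associated with silent chromatin. In mouse embryonic stem cells, related silencing systems and DNA methylation keep germline genes and genes of the 2-cell embryo low, and a small share of cells in such cultures enters a state resembling the 2-cell embryo for a time.

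The depth of the 6 hairpin libraries was similar: for a transcript of 1 kb, each FPKM corresponded to about 20.96 to 27.1 fragments, judged from the steps between low values. Replicates differed from each other most in shNC, where the SD over genes of their log2 difference was 0.345, against 0.235 in shSuv39h2 and 0.227 in shSuv39h1. Stem cell markers defined all of them, with Pou5f1 between 693 and 1007 FPKM and Dppa5a between 2275 and 2843 FPKM. Feeder RNA was also present, judged by the summed level of 40 fibroblast markers. The sum was 1524 and 2095 FPKM in shNC, 2202 and 1746 FPKM in shSuv39h2, and 1641 and 1031 FPKM in shSuv39h1. Among the 37 markers that passed the filter 0 rose and 2 fell (5.41%), Thy1 and Mmp2, where 4.69% of all tested genes fell. The median difference of the 37 between shSuv39h2 and shNC was 0.10 on the log2 scale. It was -0.42 between shSuv39h1 and shNC and 0.53 between shSuv39h2 and shSuv39h1, with 0 of them called in either. The part of feeder RNA in differences that involve shSuv39h1 was not tested. In bulk RNA, fewer cells of a type and less RNA per cell cannot be told apart.

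Suv39h2 itself (chr2:3455815-3475031 on GRCm38, minus strand) was measured at 4.797 and 4.78 FPKM in shNC and at 1.61 and 1.76 FPKM in shSuv39h2. Both knockdown libraries lay far below both controls, and the mean was 35.1% of that of shNC. On the log2(FPKM + 1) scale used for all tests, Suv39h2 fell by 1.11 (SE 0.09, adjusted p = 0.000304), and it passed with each of the 4 libraries left out (adjusted p of 0.00259 to 0.00530). In shSuv39h1 it stayed at 5.18 and 4.86 FPKM. Suv39h1 (chrX:8061171-8074760, minus strand) was at 8.58 and 7.52 FPKM in shNC and at 10.51 and 9.74 FPKM in shSuv39h2. The libraries did not overlap, but the difference of 0.30 (SE 0.10) did not pass the test (adjusted p = 0.105). Suv39h1 was lower in its own knockdown, at 4.91 and 5.10 FPKM, than in shSuv39h2, with a difference of 0.89 between the lines (adjusted p = 0.00296).

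**Figure D1:**
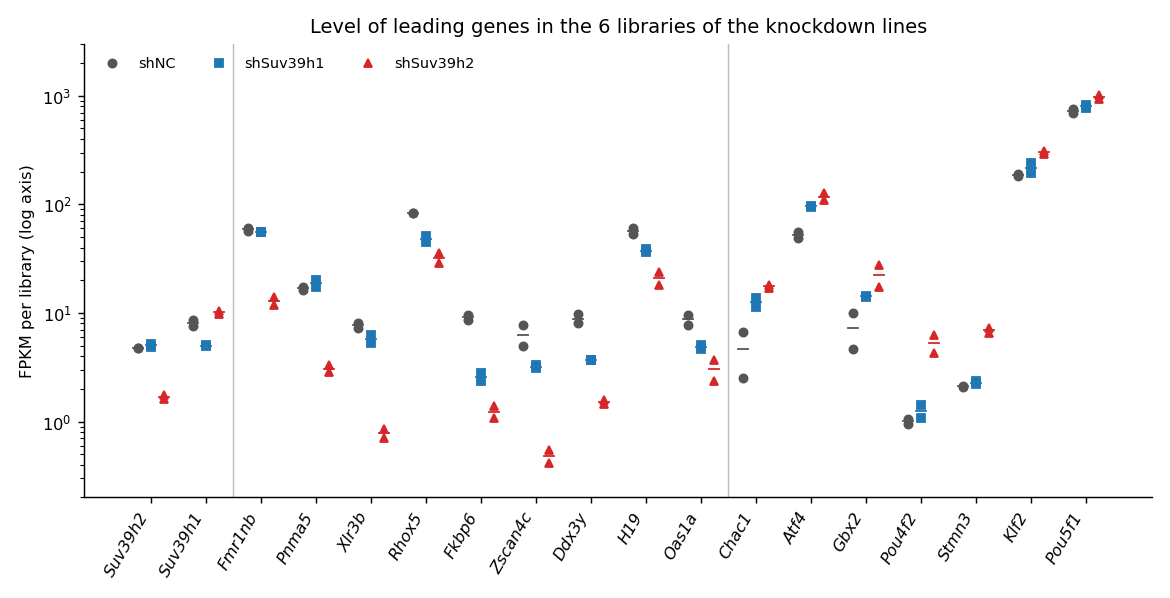
Level in FPKM (log axis) of the targeted gene, its paralog, 9 genes that fell and 7 that rose in shSuv39h2, with 1 point per library, a short line at the mean, and grey lines between the sets. In each gene after the first pair, the 2 shSuv39h2 libraries lie on 1 side of the 2 shNC libraries, and Suv39h2 lies at 1.61 and 1.76 FPKM against 4.797 and 4.78 FPKM.

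Of 13109 genes tested, 1316 passed at an adjusted p of 0.05 between shSuv39h2 and shNC, which is 10% of them. Higher in shSuv39h2 were 701 genes (5.35%) and lower were 615 (4.69%). Within the 12545 genes described, 701 rose and 576 fell, while the other 39 that fell were under 1 FPKM in at least 3 of the 4 libraries. Most changes were small: the median size over the called genes was 0.56 on the log2 scale, with 23 rising and 104 falling by at least 1. Losses thus ran larger than gains. By level, 233 genes stood at 1 FPKM or more in both shNC libraries but under it in both shSuv39h2 libraries, and 132 fell. The reverse held for 85 genes, of which 21 rose. Such genes were picked by the direction of their difference, so these called counts are a description only. The 2 shSuv39h2 libraries lay above both shNC libraries in 29.5% of tested genes and below both in 21.3%. The number of calls depended on single libraries: it was 580 without shNC replicate 1, 358 without shSuv39h2 replicate 1, 400 without shSuv39h2 replicate 2 and 1558 without shNC replicate 2. With median-of-ratios scaling 547 genes rose and 722 fell. Among 139 called genes that lead the changes or belong to the lists below, 54 passed in all 4 of these fits, and those among the other 85 that appear below are noted as such.

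**Figure D2:**
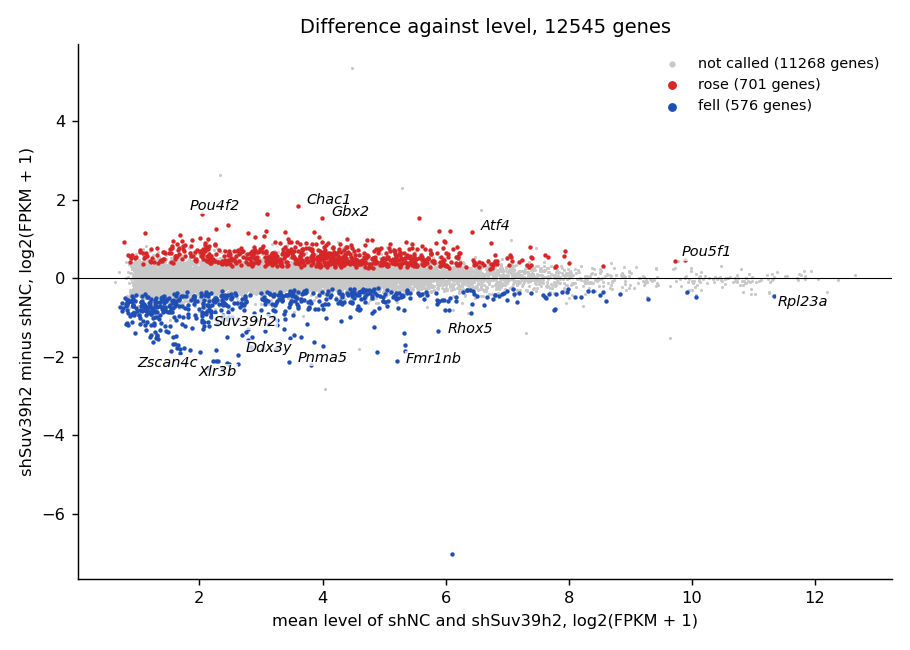
Difference between shSuv39h2 and shNC for 12545 genes on the log2(FPKM + 1) scale against their mean level on the same scale, with the 701 genes that rose in red, the 576 that fell in blue and the rest in grey. Falls extend further from 0 than rises, as with Xlr3b at -2.29 against Chac1 at 1.83. The lone blue point at -7.04 is the small nucleolar RNA gene Snora44, and small RNA genes were not described further.

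The called genes were not spread evenly over the chromosomes. Chromosome 19 had 450 tested genes, of which 153 rose (34%) and 10 fell (2.22%). It supplied 21.8% of all rising genes and 3.43% of tested ones. Chromosome 11 showed the opposite, with 7 of 1130 genes rising (0.619%) and 180 falling (15.9%), which was 29.3% of all falling genes against 8.62% of tested ones. The median difference was 0.34 over chromosome 19 and -0.22 over chromosome 11, on the log2 scale, and between 0.01 and 0.09 over the 18 chromosomes other than 11, 19 and Y. On chromosome 19, 86.7% of genes were higher in shSuv39h2, and on chromosome 11 only 16.5% were.

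**Figure D3:**
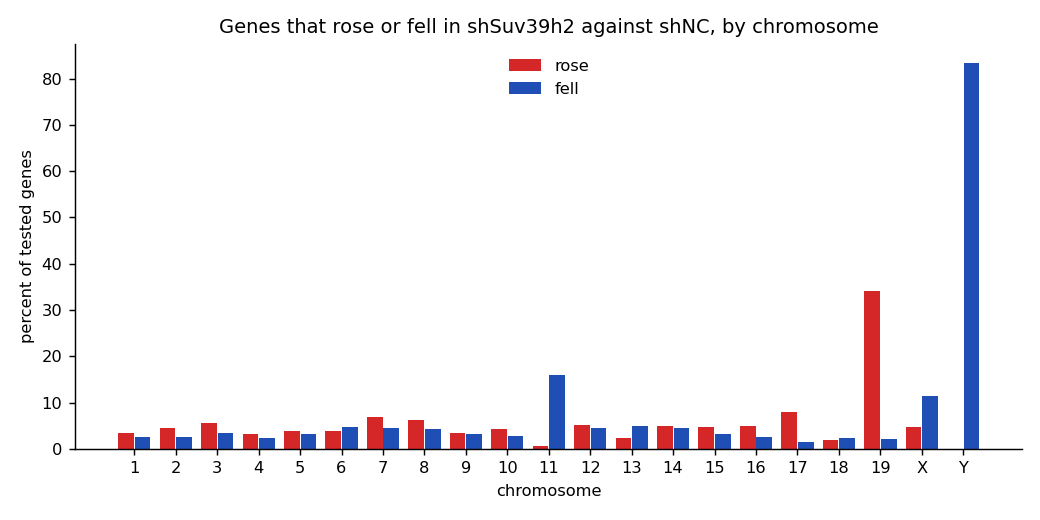
Percent of the tested genes of each chromosome that rose (red) or fell (blue) in shSuv39h2 against shNC. Chromosome 19 reaches 34% rising, chromosome 11 15.9% falling, and chromosome Y 83.3% falling over only 6 tested genes.

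Those shifts ran along the whole length of both chromosomes. In windows of 20 Mb, the median difference was between -0.25 and -0.13 in all 7 windows of chromosome 11 and between 0.16 and 0.40 in all 4 of chromosome 19. Each library was also set against the mean of all 12. The chromosome 19 median was then 0.27 in both shSuv39h2 libraries and between -0.09 and -0.01 in the other 10 libraries. For chromosome 11 it was -0.24 and -0.21 in shSuv39h2 and between -0.04 and 0.09 elsewhere. The shSuv39h1 line did not share them: its median against shNC was 0.05 over chromosome 19 and 0.07 over chromosome 11. Only RNA was measured, and no DNA content was examined here. Off chromosomes 11, 19 and Y, 534 genes rose (4.67% of 11437) and 420 fell (3.67%), and called members of the gene groups below that lie on these chromosomes are named as such.

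**Figure D4:**
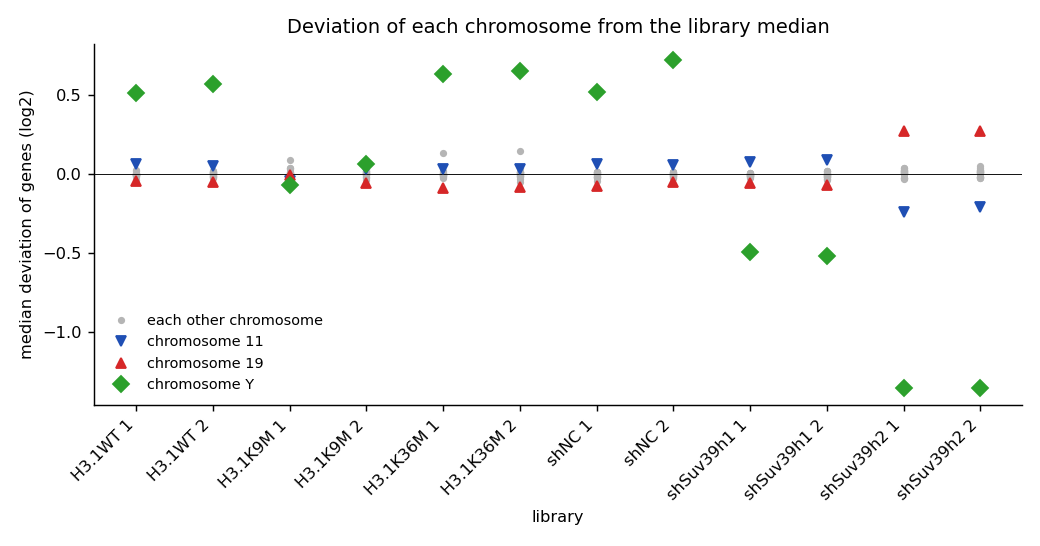
Median deviation, in log2 units, of the genes of each chromosome with a mean of at least 3 FPKM from their mean over 12 libraries, after subtracting the median of the library, with 1 column per library. Chromosome 19 at 0.27 and chromosome 11 at -0.24 and -0.21 stand apart in the shSuv39h2 libraries, and chromosome Y, which rests on 3 genes, is low there and in shSuv39h1.

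Of 6 tested genes of the Y chromosome, 5 fell. Ddx3y, which encodes an RNA helicase, was at 8.003 and 9.69 FPKM in shNC and at 1.46 and 1.57 FPKM in shSuv39h2. Eif2s3y, a translation initiation factor subunit, stood at 22.9 and 24.7 FPKM against 6.46 and 6.45 FPKM. The groups were far apart in both genes, and the falls were 1.96 (SE 0.10, adjusted p = 1.39e-05) and 1.73 (SE 0.12, adjusted p = 0.000149). Of the 8 Y-linked genes listed, 4 passed the filter, 2 of them through the shNC libraries alone. For those 2 the filter favoured a fall, so the count is given as a description only. All 4 fell, with Uba1y at -2.10 and Uty at -1.13. Each of the 4 passed with any 1 library left out. The shSuv39h1 line lay between: Ddx3y was at 3.67 and 3.67 FPKM there, lower than in shNC (adjusted p = 0.0051) and higher than in shSuv39h2 (adjusted p = 0.00259).

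Losses were also found in X-linked families that are normally expressed in germ cells and placenta. Fmr1nb (chrX:68761839-68804567), a testis antigen gene, fell from 56.9 and 61.1 FPKM to 11.8 and 14.0 FPKM. Pnma5 (chrX:73033981-73037103), of a family derived from retroelement capsid genes, was at 16.4 and 17.2 FPKM in shNC and at 2.84 and 3.29 FPKM in shSuv39h2. The 2 groups did not come near each other in either gene, and the changes were -2.11 (SE 0.11) and -2.13 (SE 0.10), each with an adjusted p of 1.39e-05. In shSuv39h1, Fmr1nb was at 55.9 and 56.2 FPKM and Pnma5 at 20.3 and 17.4 FPKM, and both were lower in shSuv39h2 than there (adjusted p = 3.33e-05 and 9.76e-06). Pnma3 and Nxf3, a testis-type RNA export factor gene, showed the same order, with differences from shSuv39h1 of -1.45 (adjusted p = 0.000492) and -1.69 (adjusted p = 0.000514).

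Within the X-linked Rhox, Xlr and Mage genes, 17 of 37 passed the filter, 6 of them through the shNC libraries alone. Of the 17, 11 fell and 1 rose, with a median of -0.88 against 0.04 over all tested genes. Those 6 were all among the falling genes, so the filter itself favoured a fall. The counts and median of this list are therefore given as a description only. Rhox genes encode homeobox factors of reproductive tissues. Rhox5 went from 84.1 and 82.6 FPKM to 28.8 and 35.3 FPKM (-1.36, SE 0.11, adjusted p = 0.00025), and shSuv39h1 held 44.7 and 50.6 FPKM. Rhox1, Rhox6 and Rhox9 fell by 1.89, 1.79 and 1.35. Rhox5 and Rhox9 were also called lower in shSuv39h1 than in shNC (-0.80, adjusted p = 0.0351, and -1.03, adjusted p = 0.035). Xlr genes encode relatives of a meiotic chromosome axis protein. Xlr3b dropped from 7.22 and 8.17 FPKM to 0.708 and 0.854 FPKM (-2.29, SE 0.16, adjusted p = 0.000144), to 10.1% of the control mean. In shSuv39h1 it was at 6.29 and 5.32 FPKM, and the difference between the lines was -1.93 (adjusted p = 0.000514). Xlr copies are nearly identical in sequence, so the split of reads among Xlr3a, Xlr3b and Xlr3c is uncertain. The gene that rose was Mageh1, at 5.35 and 5.67 FPKM in shNC and 9.52 and 9.47 FPKM in shSuv39h2 (0.69, adjusted p = 0.00721). Xlr3c passed in none of the fits with 1 library left out (adjusted p of 0.0651 to 0.170), Rhox13, Mageb4 and Mageh1 each missed in at least 1 (up to 0.0817, 0.0584 and 0.054), and the other 8 that fell passed in all 4. Over the X chromosome as a whole, 54 of 472 genes fell (11.4%) and 22 rose (4.66%), with a median of 0.01. Between the lines, 10 of the 17 list genes were lower in shSuv39h2 than in shSuv39h1, where the background share is 4.56%. The limit from the filter holds for this count too.

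Transcripts of the 2-cell-like state include those of the Zscan4 genes, which encode SCAN-domain zinc finger proteins linked to telomere upkeep. Zscan4c (chr7:11005745-11010547) was at 4.96 and 7.69 FPKM in shNC and at 0.415 and 0.552 FPKM in shSuv39h2. Zscan4f went from 6.42 and 10.0 FPKM to 0.946 and 1.05 FPKM. All shSuv39h2 values lay under all shNC values, and the falls were 2.28 (SE 0.16, adjusted p = 0.000161) and 2.18 (SE 0.19, adjusted p = 0.00034). In shSuv39h1 the levels were intermediate, at 3.30 and 3.11 FPKM for Zscan4c, where the difference from shNC did not pass (adjusted p = 0.13) and that from shSuv39h2 did (adjusted p = 0.00255). Of 30 genes in the 2-cell-like list, 12 passed the filter, and 11 of the 12 fell with a median of -1.74. Since 9 of the 12 passed only through the shNC libraries, where they were high, the filter itself favoured a fall, and the count and median are given as a description only. Besides the Zscan4 genes these were Zfp951, Arl14epl, Tmem92 on chromosome 11, and 3 Usp17l genes. Arl14epl fell from 12.01 and 15.6 FPKM to 3.00 and 3.49 FPKM (-1.79, adjusted p = 0.00025). The exception in the list, Eif1ad, rose by 0.50 and lies on chromosome 19. Its shNC level, 23.2 and 26.7 FPKM, was higher than that of any of the 11 that fell. Off chromosomes 11, 19 and Y, 10 genes of the list fell and 0 rose. Usp17la was lost with some libraries left out (adjusted p up to 0.0910), as was Eif1ad (up to 0.109), and 10 of the 11 falling genes passed in all 4 fits. Levels under 1 FPKM rest on few fragments, and reads of the Zscan4 and Usp17l copies cannot be assigned to single copies with certainty.

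Autosomal germline genes fell as well. The list holds genes whose silencing in somatic cells is ascribed to promoter DNA methylation, which was not measured here. Of 42, 33 passed the filter, 2 of them through the shNC libraries alone, so most had RNA in these cells. Of the 33, 15 fell (45.5%) and 1 rose (3.03%), where 4.69% of all tested genes fell and 5.35% rose. The median was -0.51 against 0.04 over all tested genes. Fkbp6 (chr5:135291704-135350044), a chaperone of the piRNA pathway, was at 8.70 and 9.48 FPKM in shNC and at 1.38 and 1.07 FPKM in shSuv39h2. Sohlh2 (chr3:55182028-55209957), a transcription factor of early germ cells, stood at 15.3 and 15.7 FPKM against 3.95 and 5.60 FPKM. Neither gene had overlapping groups, and they fell by 2.19 (SE 0.12, adjusted p = 2.88e-05) and 1.53 (SE 0.15, adjusted p = 0.000516). Dazl, an RNA-binding protein of germ cells, was at 4.23 and 5.86 FPKM in shNC and at 1.71 and 1.82 FPKM in shSuv39h2 (-1.12, adjusted p = 0.00256). Meiotic axis and synapsis genes in the list were also lower: Hormad1 (-0.81, adjusted p = 0.00408), Hormad2 (-0.97, adjusted p = 0.00797), Syce1 (-0.66, adjusted p = 0.0105) and Smc1b (-0.99, adjusted p = 0.0429). Testis alpha-tubulin genes followed, with Tuba3a at 37.9 and 40.5 FPKM against 14.98 and 17.3 FPKM (-1.23, adjusted p = 0.0019), although Tuba3a and Tuba3b are near-identical copies.

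D1Pas1 was the exception. This autosomal, testis-type relative of Ddx3y was at 3.55 and 4.19 FPKM in shNC and at 8.30 and 9.79 FPKM in shSuv39h2, so it rose while Ddx3y fell (1.04, SE 0.11, adjusted p = 0.00104). Hormad2 and Tex19.2 (adjusted p up to 0.138 with 1 library left out) lie on chromosome 11, and off chromosomes 11, 19 and Y 13 genes of the list fell. Against shSuv39h1, 14 of the 33 list genes were lower in shSuv39h2, where 4.56% of all tested genes were. Fkbp6 also fell in shSuv39h1, to 2.38 and 2.80 FPKM (-1.49, adjusted p = 0.0025), and was lower still in shSuv39h2 (-0.69, adjusted p = 0.0147). The count of falling list genes was 8 without shSuv39h2 replicate 1 and 9 without replicate 2. Fkbp6, Sohlh2, Dazl, Hormad1, Tex101, Tuba3a, Tuba3b and D1Pas1 passed with any 1 library left out, while Hormad2 (adjusted p up to 0.0637), Syce1 (up to 0.0762) and Smc1b (up to 0.211) did not.

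Promoters of 3 of these germline genes are shown since they carry letters searched for in the whole list: CACGTG, an E-box read by MYC, MAX and MGA family factors, and GGCGGGAA, an E2F-type site. Each is the RefSeq window from 250 bases before to 50 after the annotated start on GRCm38.p6, 5′ to 3′ on the strand of the gene, with matches on either strand in capitals: chr5:135349995-135350294 (minus) for Fkbp6, chr3:95559427-95559726 (plus) for Hormad1 and chr3:40708621-40708920 (plus) for Slc25a31.
Fkbp6: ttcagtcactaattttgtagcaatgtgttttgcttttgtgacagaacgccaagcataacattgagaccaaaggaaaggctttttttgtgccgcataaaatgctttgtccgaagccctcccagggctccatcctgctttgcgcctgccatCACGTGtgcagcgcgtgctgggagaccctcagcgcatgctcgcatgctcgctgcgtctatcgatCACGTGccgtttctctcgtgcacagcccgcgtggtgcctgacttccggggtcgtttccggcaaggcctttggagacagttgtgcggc
Hormad1: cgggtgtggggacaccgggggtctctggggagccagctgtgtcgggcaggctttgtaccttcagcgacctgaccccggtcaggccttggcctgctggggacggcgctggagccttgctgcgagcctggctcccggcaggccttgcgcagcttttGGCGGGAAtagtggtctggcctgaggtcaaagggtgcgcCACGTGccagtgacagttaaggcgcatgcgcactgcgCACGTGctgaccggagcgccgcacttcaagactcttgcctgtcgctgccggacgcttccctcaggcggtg
Slc25a31: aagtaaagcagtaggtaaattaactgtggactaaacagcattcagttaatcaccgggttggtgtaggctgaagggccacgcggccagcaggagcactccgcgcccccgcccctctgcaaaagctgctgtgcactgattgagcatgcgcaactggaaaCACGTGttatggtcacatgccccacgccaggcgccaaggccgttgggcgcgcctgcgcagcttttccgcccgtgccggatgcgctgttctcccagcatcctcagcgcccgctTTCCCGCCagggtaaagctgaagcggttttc
Fkbp6 holds 2 copies of CACGTG, Hormad1 holds 2 and 1 copy of GGCGGGAA, and Slc25a31 holds 1 of each. CACGTG was in 12 of 30 list promoters (40%) and in 4 of the 15 that belong to falling genes (26.7%), against 8.09% of 27025 genes with a promoter window and 12.2% of the genes described that have one. GGCGGGAA was in 6 of 30 (20%) and in 4 of the 15 (26.7%), against 2.52% and 5%. Both motifs were thus more frequent in the list, and the falling genes of the list did not carry CACGTG more often than the list as a whole. Slc25a31, a testis ADP/ATP carrier, was at 2.56 and 2.24 FPKM in shNC and 1.11 and 0.899 FPKM in shSuv39h2 (-0.76, adjusted p = 0.00606, up to 0.0539 with 1 library left out).

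Of 35 genes in a list of ATF4 targets and unfolded protein response genes, all of which passed the filter, 13 rose, 0 fell and 22 were not called, where 5.35% of all tested genes rose. ATF4 is the transcription factor that raises amino acid synthesis and transport when translation initiation is restrained. Atf4 itself (chr15:80255184-80257541) was at 48.6 and 55.1 FPKM in shNC and at 127 and 109 FPKM in shSuv39h2. Chac1, a glutathione-degrading enzyme, rose from 2.53 and 6.70 FPKM to 17.9 and 17.1 FPKM. The groups did not overlap, although the 2 shNC values of Chac1 differed widely, and the changes were 1.17 (SE 0.10, adjusted p = 0.00034) for Atf4 and 1.83 (SE 0.35, adjusted p = 0.0113) for Chac1. The median of the list was 0.39.

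Enzymes of serine, cysteine and proline synthesis were among them. Cth, which makes cysteine, went from 16.6 and 16.7 FPKM to 37.2 and 30.6 FPKM (0.98, SE 0.15, adjusted p = 0.00512). Psat1 and Psph of serine synthesis rose by 0.79 (adjusted p = 0.0374) and 0.76 (adjusted p = 0.0229), and Shmt2 by 0.43 (adjusted p = 0.0385). Aldh18a1 of proline synthesis was at 16.8 and 18.9 FPKM in shNC and 38.4 and 34.2 FPKM in shSuv39h2 (0.98, adjusted p = 0.00663). Both chains of the large neutral amino acid transporter, Slc3a2 (0.53, adjusted p = 0.00326) and Slc7a5 (0.38, adjusted p = 0.0381), were higher too, as was Sesn2, an inhibitor of mTORC1 that is also in the p53 list (0.39, adjusted p = 0.0331). Trib3, a pseudokinase that feeds back on ATF4, rose from 6.93 and 11.3 FPKM to 21.5 and 17.8 FPKM (1.06, adjusted p = 0.0205). Slc3a2, Aldh18a1 and Psat1 lie on chromosome 19, and 10 list genes rose off chromosomes 11, 19 and Y.

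The call count of this list leaned on single libraries: 5 genes rose without shNC replicate 1, 3 without shSuv39h2 replicate 1 and 7 without shSuv39h2 replicate 2. Atf4, Slc3a2 and Pck2 passed in all 4 such fits. Cth, Aldh18a1, Chac1, Herpud1, Trib3, Psph, Psat1, Slc7a5, Shmt2 and Sesn2 each missed in at least 1, with adjusted p up to 0.0505, 0.0578, 0.0722, 0.0943, 0.129, 0.127, 0.166, 0.182, 0.184 and 0.192. The shSuv39h1 line stood between control and shSuv39h2 for most of these genes: Atf4 was at 96.1 and 95.2 FPKM there, higher than in shNC (0.87, adjusted p = 0.022) and not distinguished from shSuv39h2 (0.30, SE 0.10, adjusted p = 0.121). Only 2 list genes were called between the lines, Cth (0.72, adjusted p = 0.0267) and Slc3a2 (0.29, adjusted p = 0.0473), each higher in shSuv39h2.

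Promoters of 3 rising genes of the list are shown because they hold TGATGNAA, the core of the composite element bound by ATF4 with a C/EBP partner. The windows are as above, with the match on either strand in capitals: chr2:119350992-119351291 (plus) for Chac1, chr14:55540016-55540315 (plus) for Pck2 and chr8:94386179-94386478 (plus) for Herpud1.
Chac1: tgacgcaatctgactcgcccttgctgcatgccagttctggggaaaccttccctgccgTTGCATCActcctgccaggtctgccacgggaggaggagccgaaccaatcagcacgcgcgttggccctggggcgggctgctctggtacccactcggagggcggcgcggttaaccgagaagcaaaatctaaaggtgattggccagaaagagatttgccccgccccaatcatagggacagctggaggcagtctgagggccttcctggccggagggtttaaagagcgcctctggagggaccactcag
Pck2: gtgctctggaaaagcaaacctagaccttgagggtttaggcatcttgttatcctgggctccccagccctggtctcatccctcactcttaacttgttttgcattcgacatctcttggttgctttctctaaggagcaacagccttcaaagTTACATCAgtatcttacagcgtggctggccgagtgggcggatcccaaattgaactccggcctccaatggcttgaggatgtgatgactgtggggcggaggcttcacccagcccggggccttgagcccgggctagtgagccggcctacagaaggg
Herpud1: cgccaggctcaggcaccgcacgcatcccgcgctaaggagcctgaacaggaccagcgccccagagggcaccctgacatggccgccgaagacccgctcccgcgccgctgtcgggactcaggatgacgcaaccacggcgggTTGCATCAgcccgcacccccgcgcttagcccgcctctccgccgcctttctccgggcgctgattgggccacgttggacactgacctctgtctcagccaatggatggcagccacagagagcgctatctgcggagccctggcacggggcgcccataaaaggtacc
The element was found in 9 of 30 list promoters (30%) and in 4 of the 11 rising genes of the list with a window (36.4%), Trib3 being the fourth. The share in rising genes was thus near that of the whole list, which was drawn up to hold ATF4 targets. The share over all promoter windows was 4.51% and that over the genes described 2.63%. Over all 545 rising genes with a window, which include those of the list, it was 4.04%. Pck2, the mitochondrial PEP carboxykinase, was at 7.56 and 8.01 FPKM in shNC and at 16.1 and 14.2 FPKM in shSuv39h2 (0.88, SE 0.13, adjusted p = 0.00446). Herpud1, which acts in the degradation of endoplasmic reticulum proteins, was at 7.80 and 11.3 FPKM and at 20.5 and 16.1 FPKM (0.88, SE 0.17, adjusted p = 0.0118).

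Several naive pluripotency factors were higher at high absolute levels. Klf2, a factor that sustains the naive state, was at 184 and 191 FPKM in shNC and at 294 and 313 FPKM in shSuv39h2. Pou5f1, the core factor OCT4, stood at 693 and 748 FPKM against 939 and 1007 FPKM. The groups were separate in both, with changes of 0.69 (SE 0.13, adjusted p = 0.0114) and 0.43 (SE 0.09, adjusted p = 0.0135). Of 30 listed genes, 6 rose (20%) and 1 fell (3.33%), where 5.35% of all tested genes rose and 4.69% fell. The median was 0.15 against 0.04 over all tested genes. The other 4 that rose were Klf4 (0.53, adjusted p = 0.00996), Utf1 (0.39, adjusted p = 0.0179), Nr0b1 (0.61, adjusted p = 0.0261) and Zfp57 (0.34, adjusted p = 0.0282). Fbxo15, a target of OCT4 and SOX2, went the other way, from 68.8 and 90.3 FPKM to 40.05 and 49.5 FPKM (-0.81, adjusted p = 0.00873). None of the 7 lies on chromosomes 11, 19 or Y. Nanog was at 161 and 227 FPKM in shNC and at 158 and 195 FPKM in shSuv39h2, so those groups overlapped. The shSuv39h1 line had a median of 0.13 over the list with 0 called. Klf2, Pou5f1 and Klf4 were 0.48, 0.28 and 0.09 higher in shSuv39h2 than in shSuv39h1 without passing (adjusted p = 0.0579, 0.0869 and 0.664). Of the list, 1 gene was higher in shSuv39h2 than in shSuv39h1, Nr0b1 (0.60, adjusted p = 0.0401), and 1 was lower. All 6 rises depended on single libraries: 3 passed without shNC replicate 1, 0 without shSuv39h2 replicate 1 and 1 without shSuv39h2 replicate 2, and Fbxo15 also missed in 1 fit (adjusted p up to 0.0695).

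Some single neural and developmental genes rose by more than 1 on the log2 scale. Pou4f2, a transcription factor of retinal ganglion cells, went from 0.942 and 1.06 FPKM to 4.25 and 6.27 FPKM (1.63, SE 0.17, adjusted p = 0.000768). Stmn3, a neuronal microtubule regulator, rose from 2.10 and 2.12 FPKM to 6.59 and 7.23 FPKM (1.35, SE 0.12, adjusted p = 0.000386). Both were near the control level in shSuv39h1 and differed between the lines (1.46, adjusted p = 0.00269, and 1.27, adjusted p = 0.00162). Gbx2, a homeobox gene that is also a target of LIF signalling, was at 4.61 and 9.97 FPKM in shNC and at 17.3 and 27.5 FPKM in shSuv39h2 (1.54, SE 0.31, adjusted p = 0.014). Gbx2 missed with shNC replicate 1 or shSuv39h2 replicate 2 left out (adjusted p up to 0.110), whereas Pou4f2 and Stmn3 passed in all 4 fits.

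Over all tested genes 5.35% rose and 4.69% fell. Among 19 neural progenitor genes that passed the filter of 51, Gbx2 and Bcl11a rose (10.5%) and 0 fell. Bcl11a lies on chromosome 11 and missed with single libraries left out (adjusted p up to 0.0812). Of 49 neuronal and synaptic genes of 86, 2 rose (4.08%) and 4 fell (8.16%) with a median of 0.01. The list as a whole thus stayed close to all tested genes. Stmn3 and Gng3, a G protein subunit gene on chromosome 19 (adjusted p up to 0.0668 with 1 library left out), were the pair that rose. Stmn2, a relative of Stmn3, fell from 77.3 and 90.4 FPKM to 41.0 and 54.3 FPKM (-0.81, SE 0.12, adjusted p = 0.00487), so members of this family changed in opposite directions. Nefm, a neurofilament subunit, fell by 0.68 (adjusted p = 0.00798) from a level near 1 FPKM, and it missed without 1 library (up to 0.0642). Gata4, a primitive endoderm factor, rose from 1.39 and 1.13 FPKM to 2.62 and 2.44 FPKM (0.65, adjusted p = 0.00996, up to 0.0722). Over the 25 endoderm genes 2 rose (8%) and 2 fell (8%).

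Other large rises came from genes of diverse function. Enpp3, a surface phosphodiesterase, went from 4.39 and 4.17 FPKM to 9.78 and 10.7 FPKM (1.09, SE 0.12, adjusted p = 0.000967), and shSuv39h1 held 3.98 and 4.61 FPKM. Ntn1, the guidance cue netrin-1, rose against the trend of its chromosome 11, from 5.19 and 5.68 FPKM to 12.8 and 14.3 FPKM (1.18, SE 0.12, adjusted p = 0.000681). It also rose in shSuv39h1, to 10.95 and 10.6 FPKM (0.87, adjusted p = 0.035). Dmrt1, a sex determination factor on chromosome 19, was at 8.597 and 7.196 FPKM in shNC and at 19.4 and 19.01 FPKM in shSuv39h2 (1.19, SE 0.20, adjusted p = 0.00721, up to 0.0541 with 1 library left out). Its rise exceeds the chromosome's median of 0.34. Mia, Polr3gl, which encodes an RNA polymerase III subunit, and Fuz, of ciliogenesis, rose by 1.25, 1.21 and 1.01 and passed in all 4 fits.

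Of 34 interferon response genes that passed the filter, 2 of them through the shNC libraries alone, 8 fell and 0 rose, where 4.69% of all tested genes fell. Oas1a, which makes the activator of RNase L, was at 9.62 and 7.83 FPKM in shNC and at 2.36 and 3.71 FPKM in shSuv39h2 (-1.28, SE 0.17, adjusted p = 0.00278). Psmb8, an immunoproteasome subunit, went from 3.76 and 3.20 FPKM to 1.29 and 1.90 FPKM (-0.79, SE 0.13, adjusted p = 0.00647). The largest fall among interferon-linked symbols outside the list was Ifi27l1, at 62.6 and 29.5 FPKM in shNC and 11.8 and 10.1 FPKM in shSuv39h2 (-1.89, SE 0.34, adjusted p = 0.00897, up to 0.0671 with 1 library left out). The other 26 list genes were not called, and the median was -0.35. The shSuv39h1 line had a median of -0.46 over the same genes with 0 called, and of -0.42 over the feeder markers. Between the lines 1 gene, Xaf1, was called (-0.91, adjusted p = 0.0176). Ifi35, Xaf1 and Irf1 lie on chromosome 11, and the other 5 that fell do not. The count was 5 without shNC replicate 1, 3 without shSuv39h2 replicate 1 and 5 without shSuv39h2 replicate 2. Oas1a, Ifi35 and Xaf1 passed in all 4 of those fits, and Psmb8 (up to 0.0522) and Irf1 (up to 0.125) did not.

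**Figure D5:**
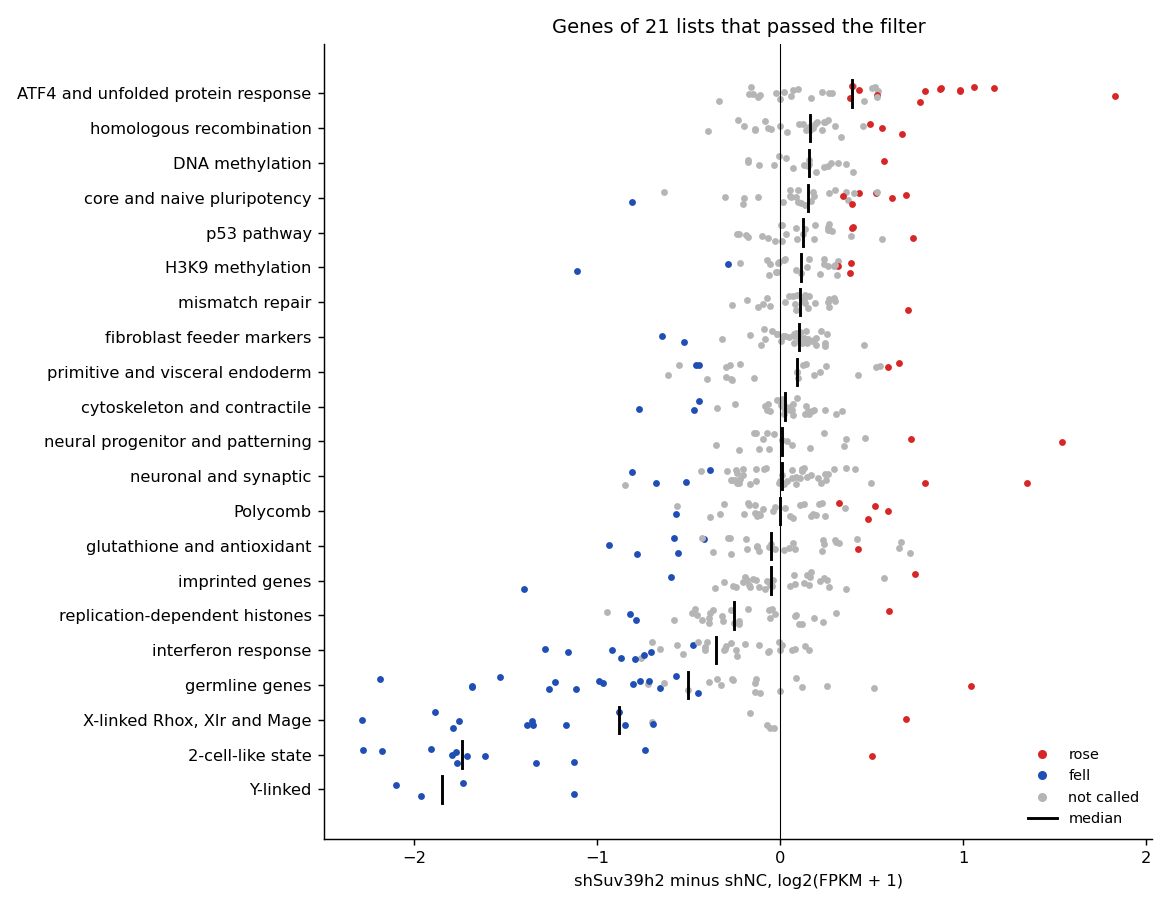
Difference between shSuv39h2 and shNC on the log2(FPKM + 1) scale for the genes of 21 lists that passed the filter, 1 point per gene, red where it rose, blue where it fell, with a bar at the median. The medians run from -1.85 for the Y-linked list and -1.74 for the 2-cell-like list to 0.39 for the ATF4 list, and most other lists are centred near 0. Genes that passed the filter only through shNC favoured a low median: 2 of 4 Y-linked, 9 of 12 2-cell-like, and 6 of 17 Rhox, Xlr and Mage genes.

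The other calls in the H3K9 methylation machinery were small in size. Of 27 writers, readers and erasers, 3 rose (11.1%), 2 fell including Suv39h2 (7.41%), and the median was 0.11. Over all tested genes 5.35% rose and 4.69% fell. Ehmt2, the H3K9 methyltransferase G9a, was at 60.2 and 53.1 FPKM in shNC and at 71.6 and 69.5 FPKM in shSuv39h2 (0.31, SE 0.08, adjusted p = 0.0381). The demethylase Kdm4a (0.38, adjusted p = 0.0165) and the JmjC-domain gene Jmjd1c (0.38, adjusted p = 0.0158) rose, and Atf7ip, a cofactor of SETDB1, fell by 0.28 (adjusted p = 0.0466). None of those 4 passed in every fit with 1 library left out (adjusted p up to 0.167, 0.0917, 0.102 and 0.193). Cbx5, which encodes HP1 alpha, was 0.32 higher without passing (adjusted p = 0.1).

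DNA methylation genes were mostly not called, with 1 of 19 rising: Zbtb33, the methyl-CpG reader Kaiso, from 2.08 and 1.92 FPKM to 3.63 and 3.26 FPKM (0.57, adjusted p = 0.00791, up to 0.0659 with 1 library left out). Dnmt1 was 0.26 higher (SE 0.10, adjusted p = 0.139) and Dnmt3a 0.28 higher (SE 0.11, adjusted p = 0.139), and neither passed. The rising share of the DNA methylation list was 5.26%, against 5.35% of all tested genes. In the Polycomb list, 4 of 32 rose (12.5%) and 1 fell (3.125%), with a median of 0.00. Suz12, a core subunit of the H3K27 methyltransferase complex, was at 72.3 and 67.5 FPKM in shNC and at 46.4 and 47.0 FPKM in shSuv39h2 (-0.57, SE 0.11, adjusted p = 0.0115). It lies on chromosome 11 and Pcgf6 on chromosome 19. The Suz12 partner Eed rose by 0.32 (adjusted p = 0.0448), and Pcgf6, Cbx6 and Ring1 of the complex that ubiquitylates H2A by 0.59, 0.48 and 0.52. All 5 missed with 1 library left out, with adjusted p up to 0.0722 for Suz12 and 0.270 for Eed.

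Among imprinted genes, which are expressed from 1 parental allele, H19 moved most. This long noncoding RNA was at 60.6 and 53.3 FPKM in shNC and at 23.9 and 18.3 FPKM in shSuv39h2 (-1.40, SE 0.17, adjusted p = 0.00196). Its level in shSuv39h1, 38.7 and 36.4 FPKM, lay between them and above that of shSuv39h2 (adjusted p = 0.0251). Plagl1, a zinc finger gene, fell by 0.60 (adjusted p = 0.00726) and Mcts2 rose by 0.74 (adjusted p = 0.00875). Those were 3 of 34 imprinted genes, of which 5.88% fell and 2.94% rose, against 4.69% and 5.35% of all tested genes. H19 alone of the 3 passed in all 4 fits (the others up to 0.0622 and 0.0722).

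Of 33 glutathione and antioxidant genes, 5 fell (15.2%) and 1 rose (3.03%), with a median of -0.05. Over all tested genes 4.69% fell and 5.35% rose. Off chromosomes 11, 19 and Y, 3 genes of the list fell and 1 rose. Gstm5, a glutathione transferase, was even within groups, at 19.25 and 19.3 FPKM in shNC and at 10.8 and 10.7 FPKM in shSuv39h2 (-0.78, SE 0.09, adjusted p = 0.00104), and shSuv39h1 held 19.3 and 19.4 FPKM. Gpx3 on chromosome 11, Gpx2, Ggt1 and Gstp2 on chromosome 19 fell by 0.42, 0.58, 0.56 and 0.94, and Gsr rose by 0.42. Gstm5 alone of the 6 passed in all 4 fits (the others up to 0.179, 0.223, 0.127, 0.153 and 0.219). Among replication-dependent histone genes, 2 of 31 fell (6.45%), 1 rose (3.23%) and the median was -0.25, so the called shares were near those over all tested genes. Hist1h3e went from 11.1 and 10.2 FPKM to 6.79 and 4.59 FPKM (-0.82, adjusted p = 0.00894, up to 0.0533 with 1 library left out).

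DNA repair genes are of interest because the series concerns single nucleotide variation. The share that rose was 4.17% in the mismatch repair list, 10.7% in homologous recombination and 11.1% in the p53 list. Over all tested genes it was 5.35%. Pold4, the small subunit of polymerase delta, rose from 7.69 and 7.89 FPKM to 15.1 and 11.7 FPKM (0.70, SE 0.12, adjusted p = 0.00713) and was the single call among 24 mismatch repair genes. It lies on chromosome 19 and missed without shSuv39h2 replicate 1 (adjusted p = 0.0522). Of 28 homologous recombination genes 3 rose: Mus81, a nuclease subunit on chromosome 19, from 4.71 and 5.30 FPKM to 8.27 and 8.79 FPKM (0.67, adjusted p = 0.00489), Rmi2 (0.55, adjusted p = 0.0199) and Rad54l (0.49, adjusted p = 0.036). Rmi2 and Rad54l missed with single libraries left out (up to 0.114 and 0.190). In the p53 list 3 of 27 rose, led by Gadd45a, a stress and DNA damage gene, from 19.01 and 15.1 FPKM to 28.4 and 29.1 FPKM (0.73, SE 0.10, adjusted p = 0.00363), which passed in all 4 fits.

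Among the most highly expressed called genes, position on chromosomes 11 and 19 was common. Rpl23a, Actg1, Nme2, Rpl26 and Hint1, the 5 falling genes with the highest levels, all lie on chromosome 11. Rpl23a, a ribosomal protein gene, was at 3223 and 2757 FPKM in shNC and at 2122 and 2232 FPKM in shSuv39h2 (-0.45, SE 0.12, adjusted p = 0.0411). Actg1, cytoplasmic gamma-actin, was at 1133 and 1372 FPKM and at 853 and 946 FPKM (-0.47, SE 0.11, adjusted p = 0.0228). Myl7 and Myh10, the other cytoskeletal genes that fell of 31 in that list, are on chromosome 11 as well. Of that list 9.68% fell and 0 rose, against 4.69% and 5.35% of all tested genes. Of the 5 rising genes with the highest levels, Pgam1, a glycolytic enzyme, and Banf1, a chromatin-bridging factor, lie on chromosome 19, while Pou5f1, Klf2 and Utf1 do not. Pgam1 was at 788 and 801 FPKM in shNC and at 1103 and 1078 FPKM in shSuv39h2 (0.46, SE 0.09, adjusted p = 0.0114). None of these 9 passed in all fits with 1 library left out (adjusted p up to 0.210 for Rpl23a, 0.141 for Actg1 and 0.0741 for Pgam1).

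The direct comparison of the knockdown lines, with the spread estimated over all 12 libraries, called 860 genes (6.56%), 262 higher in shSuv39h2 (2%) and 598 lower (4.56%). With the 6 hairpin libraries alone it called 367. The feeder markers had a median of 0.53 in this comparison. The shSuv39h1 line by itself differed from shNC in 19 genes (0.145%), 11 higher (0.0839%) and 8 lower (0.061%), and in 1384 at an unadjusted p under 0.05. Both contrasts share libraries with the main one, so the values stand side by side without a count of overlap. Usp26, an X-linked deubiquitinase of testis, separated the lines from both sides: it was at 5.01 and 5.01 FPKM in shNC, 1.80 and 2.42 FPKM in shSuv39h2 and 11.1 and 11.2 FPKM in shSuv39h1. Between the lines it differed by -1.97 (adjusted p = 0.000564). Cltb, clathrin light chain b, showed the same order at 33.6 and 32.4, 23.99 and 24.6, and 45.6 and 47.0 FPKM, with a difference of -0.90 (adjusted p = 0.000514). Against shNC, Usp26 and Cltb fell in shSuv39h2 and missed with 1 library left out (adjusted p up to 0.0642 and 0.0534). The count of genes called between the lines was 113 without shSuv39h2 replicate 1, 221 without shSuv39h2 replicate 2, 85 without shSuv39h1 replicate 1 and 76 without shSuv39h1 replicate 2. For shSuv39h1 against shNC it was 3 without shNC replicate 1, 0 without shSuv39h1 replicate 1 and 2 without shSuv39h1 replicate 2.

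Rising genes were shorter and richer in GC than tested genes by their medians, without a test. Genes that rose had a median transcript length of 1155.5 bases and a median GC content of 54.2%, against 1378 bases and 51.3% over all tested genes, and genes that fell had 1369 bases and 51.2%. Off chromosomes 11, 19 and Y the rising genes had 1187 bases and 54.1%. The part of length and base composition in the result was not tested. The median level of the falling genes was 5.98 FPKM in shNC and 2.98 FPKM in shSuv39h2, and that of the rising genes 12.3 and 18.5 FPKM.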

How the data were processed

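The authors deposited 1 table per library with an FPKM value for each gene symbol. Reads were processed with Cuffdiff 2.2.1 and TopHat2 2.0.13 against mm10, per the submitters' processing notes. The sources used here give neither the gene annotation nor the scaling between libraries. The labels name a pair of library kits without saying which made which library.

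Values were used as deposited, as log2(FPKM + 1), and tested with limma 3.58.1 (R 4.3.3, intensity trend) in 1 fit over 12 libraries with a mean for each of 6 groups. The 13109 genes that reached 1 FPKM in 2 or more of the 12 libraries were tested. This left 6 residual degrees of freedom plus a prior of 3.66. Tests are two-sided, with Benjamini-Hochberg adjustment over all tested genes and a threshold of 0.05. The fit with all groups shares 1 estimate of the spread, and the added 1 makes differences of low genes look smaller than they are. The script was tested on simulated data.

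Positions came from GENCODE M21 on GRCm38 (13023 tested genes placed) and promoters from RefSeq. Motifs were counted in any window of a gene, on both strands. Genes were named as follows: Suv39h1 and Suv39h2, up to 15 called genes per direction with the largest change, non-overlapping libraries and at least 3 FPKM in the higher group, the 5 with the highest level in each direction, up to 10 that differed most from shSuv39h1, and up to 6 members per list with the smallest p. Further called list members, and genes named for their promoter or chromosome, were chosen after their values were seen. The genes, lists and comparisons were chosen with earlier results of these data known. Alternatives were another pseudocount, filter, scaling, weighting, set of libraries or replicate block, each library left out, and, added after seeing the data, chromosomes 11, 19 and Y left out and list counts under each setting.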

Additional observations from a re-analysis of the deposited data

How the results depend on the processing

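For shSuv39h2 against shNC, the count of 1316 called genes became 860 with array quality weights, 861 in a fit of the 6 hairpin libraries, 182 in a fit of the 4 libraries compared and 833 without genes on chromosomes 11, 19 and Y. Leaving out each library gave 358 to 1558. It was 984 to 1338 with the other pseudocount, filters and scalings. Suv39h2 passed under every setting tried, with changes of -1.46 to -1.07. For shSuv39h1 against shNC (19 genes) the count was 11 with a pseudocount of 0.1, 10 with the replicate block, 3 with the 6 hairpin libraries, 12 without those chromosomes and 0 to 18 with each library left out. For shSuv39h2 against shSuv39h1 (860) it was 2103 with array weights, 367 with the 6 hairpin libraries, 362 without those chromosomes and 76 to 221 with each library left out. A filter of 5 FPKM left 6 falling genes in the 2-cell-like list (11), 9 in the germline list (15) and 5 in the interferon list (8); fewer of their genes were then tested. With the 4 libraries alone, 7 germline and 3 interferon genes fell, and 6 ATF4 genes (13) and 1 pluripotency gene (6) rose. Without those chromosomes 4 interferon genes fell. Leaving out each library gave 8 to 15 germline, 3 to 9 ATF4, 3 to 7 interferon and 0 to 6 pluripotency genes. The chromosome 19 median was 0.19 with no filter and 0.29 to 0.39 otherwise. The cause of these shifts was not tested beyond the smaller number of genes or libraries. Replicate numbers are shared between groups, yet only as numbers: the correlation of replicate 1 minus replicate 2 was 0.383 between shNC and shSuv39h2 and -0.242 between shNC and shSuv39h1. With the replicate block 1323 genes were called in the main comparison and 852 between the lines, Suv39h2 had an adjusted p of 0.00101, and 133 of 139 named genes kept their call. None of the 139 reversed under any setting. At 20.96 to 27.1 fragments per FPKM and kb, levels well under 1 FPKM rest on few fragments.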
